A study of Homo sapiens with 6 samples.

Results

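The genes described here are 38 genes of the lysosome: the TFEB family of transcription factors, lysosomal membrane proteins, acid hydrolases, and subunits of the proton pump that acidifies the organelle. They were chosen by name and not by a cut on their values, although earlier results of these data were known. All 38 were found among the 62700 gene IDs of the deposited count table. Their RNA was measured in HEK293T, a line from human embryonic kidney that expresses the large T antigen of SV40. In 3 libraries, the cells had received plasmid for SpRY-ABE8e, an adenine base editor in which a Cas9 with a relaxed sequence requirement carries a deaminase, with guide RNAs labelled SA and SD for exon 17 of APP. In the other 3, they had received a GFP plasmid instead, and Lipofectamine 2000 was the transfection agent in both groups. The editor group thus differed from the GFP group in editor and guides together, with no library of editor without guides, and transfected and untransfected cells were not separated. The labels give neither the hours between transfection and harvest nor the share of alleles edited.

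Lysosomes break down proteins, sugars and lipids with enzymes that work at low pH. The V-ATPase keeps that pH by pumping protons inward: its cytoplasmic V1 domain hydrolyses ATP, and its membrane-embedded V0 domain passes the protons. TFEB, TFE3 and MITF bind E-box sequences in the promoters of many of these genes and are held in the cytoplasm by mTORC1 when nutrients are plentiful, mainly through phosphorylation, so their mRNA level does not report their activity. APP, the gene targeted in this study, encodes a protein that is itself cut and degraded partly in endosomes and lysosomes, which links this gene set to the design's interest in Alzheimer's disease genes.

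The libraries held 110519197, 124265010 and 152625595 counts in editor libraries 1, 2 and 3, and 128988337, 128223446 and 124681733 in GFP libraries 1, 2 and 3. Levels are given as CPM, counts per 1000000 counts of a library after TMM scaling, and folds as log2 of editor over GFP from edgeR's quasi-likelihood test over 20511 genes, with the standard error (SE). Editor libraries 2 and 3 lay far closer to each other than any other pair of replicates, at a chi-square of 3.16 for each degree of freedom, where the other pairs had 31.6 to 174.6, and still differed by more than sampling noise. APP had 508, 416 and 412 CPM with the editor and 465, 489 and 531 CPM with GFP, which is −0.15 ± 0.12 as a log2 fold change (adjusted p = 0.752), and counts per gene do not show whether exon 17 was included. Of 13 markers of embryonic kidney epithelium and HEK293T, 11 averaged over 1 CPM, while PAX8 and LHX1 did not, and their summed level was 1650 to 1760 CPM with the editor and 1940 to 1960 CPM with GFP. VIM made up that gap, and without it the sums overlapped, at 707 to 818 CPM with the editor and 705 to 817 CPM with GFP. Of 10 macrophage markers, 0 did, and their summed level was 0.70 to 0.825 CPM in the editor and 0.634 to 0.808 CPM in the GFP libraries. Fibroblast markers summed to 43.4 to 46.0 CPM with the editor and 36.5 to 38.5 CPM with GFP, with 4 of 10 over 1 CPM. Endothelial markers summed to 1.85 to 2.77 and 1.37 to 1.99 CPM (1 of 7), and markers of mature tubule and podocyte, nearly all LRP2, to 45.1 to 62.4 and 35.1 to 57.5 CPM (1 of 8). Mitochondrially encoded transcripts took 4.62% to 6.39% of editor counts and 3.42% to 4.49% of GFP counts, and the part of these shifts in the results was not tested. In bulk RNA, fewer cells with a transcript and less of it per cell cannot be told apart.

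Because the TFEB family acts through promoter E-boxes, the promoters that hold a match are shown before the levels. RefSeq promoter windows, from 250 bases before to 50 bases after each annotated start in GRCh38.p14, were found for 28 of the 38 genes, with 43 windows in all. The 8-base motif GTCACGTG, read on both strands, lay in a window of 8 of these 28 genes (28.6%) and in 800 of all 27305 genes with a window (2.93%). Of the 12804 genes with a window that were also tested for expression, 4.94% held this motif. Of 107 further genes of the lysosome, delivery to it, mTORC1 control and autophagy, 17.8% did. The 6-base core of the motif, CACGTG, was also found in NEU1, CTSF and CD63, which made 11 of 28 genes (39.3%) against 8.77% of all genes. Its share was 12% of the tested genes and 21.5% of the 107 further genes. The match nearest the start of each of the 8 genes is printed below 5′ to 3′ on the gene's own strand, with the motif or its reverse complement, CACGTGAC, in capitals and 11 bases on each side.
LAMP1: gcggcgcagctCACGTGACaagcgctgccg
MCOLN1: ggctaccgggtCACGTGACcgaggcacaga
ATP6V0D1: gcccccttatgGTCACGTGaggcgcttgcg
ATP6V0B: accggcgtgggGTCACGTGgtaccggcgca
CTSA: gcgccggagttCACGTGACtcgtacacatg
CTSD: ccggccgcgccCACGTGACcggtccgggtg
GAA: ctcccgccggtCACGTGACccgcctctgcg
ARSB: aattcaataagCACGTGACtaaaggatttt
These stretches lie at chr13:113297227-113297256 (plus strand) for LAMP1, chr19:7522599-7522628 (plus) for MCOLN1 and chr16:67481200-67481229 (minus) for ATP6V0D1. Those of ATP6V0B and CTSA lie at chr1:43974890-43974919 (plus) and chr20:45891299-45891328 (plus). The stretch of CTSD lies at chr11:1763956-1763985 (minus), that of GAA at chr17:80101539-80101568 (plus) and that of ARSB at chr5:78986100-78986129 (minus). LAMP1 held 6 matches, the most of the 8 genes, and its match nearest the start began 1 base before it. In GAA and MCOLN1, matches on the 2 strands overlapped by 6 bases, because the motif is nearly its own reverse complement. A match describes letters in a window and does not show that a factor binds there.

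The mean summed RNA of the lysosomal genes was nearly the same in editor and GFP libraries. The 38 genes added up to 2817 ± 165 CPM with the editor and 2816 ± 92.5 CPM with GFP (mean ± SD, n = 3 each). By library the sums were 3006, 2736 and 2708 CPM with the editor and 2911, 2727 and 2810 CPM with GFP. Counts were too low to test in 2 of the 38, NEU1 and ATP6V0C. Of the 36 tested, 0 were called higher and 0 lower at an adjusted p under 0.05 (edgeR), where 0.0244% of all tested genes were called higher and 0% lower. At an unadjusted p under 0.05, 4 were higher, LAMP1, ATP6V0A1, ATP6V0D1 and MCOLN1, and 0 were lower, which is 11.1% and 0% beside backgrounds of 6.1% and 2.57% of all genes. The other tools gave 0 calls too, and each had 3 higher (8.33%) and 0 lower at an unadjusted p under 0.05. With DESeq2 these were MCOLN1, ATP6V0A1 and ATP6V0D1, beside 4.98% of all genes higher and 3.05% lower, and with limma-voom LAMP1, ATP6V0A1 and ATP6V0D1, beside 5.76% and 2.55%.

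In the main fit, which counted every library as a separate replicate, the intervals were narrow for most of the genes. Editor libraries 2 and 3 lay far closer to each other than any other pair of replicates. The intervals may therefore be too narrow. With these libraries summed as 1 replicate, 0 of the 36 genes had an unadjusted p under 0.05 (edgeR). The background of that fit was 2.57% of all genes higher and 0.963% lower, and its interval widths were not compared. In the main fit, the 95% interval of the fold change lay inside 1.5-fold in either direction for 33 of 36 (91.7%), against 80.1% of all genes whose average log2 CPM was 1 or more. MCOLN1, ARSB and ATP6V0D1 were the exceptions. It lay inside 1.25-fold for 9 (25.0%), against 18.1% of the same genes. Log2 fold changes ran from −0.22 in HEXA to 0.53 in MCOLN1 with a median of 0.02, the median of all tested genes being 0.02 as well, and 15 of 36 (41.7%) lay below 0 against 45.7% of all genes.

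**Figure D1:**
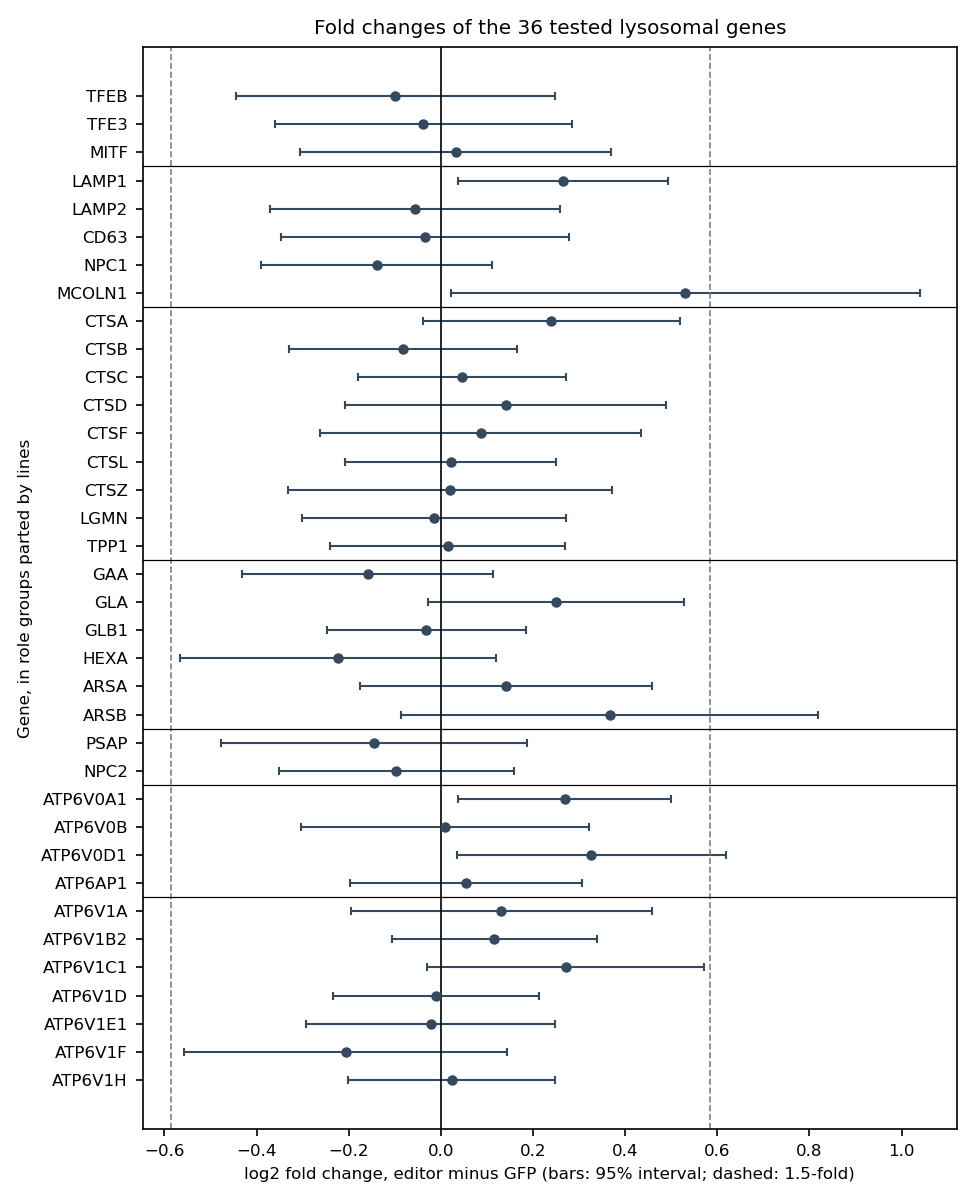
Log2 fold change (editor minus GFP, horizontal axis) of the 36 tested genes in role groups, with bars for the 95% interval from edgeR and dashed lines at 1.5-fold. The intervals of MCOLN1, ARSB and ATP6V0D1 pass a dashed line on the higher side, and those of the 4 genes with an unadjusted p under 0.05 exclude 0.

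The 3 transcription factors stood at very different levels in HEK293T cells. TFE3 was the most abundant, at 12.6 ± 0.974 CPM per kilobase of exon in the GFP libraries (mean ± SD, n = 3), followed by MITF at 2.55 ± 0.463 and TFEB at 1.26 ± 0.226, with no overlap between libraries of the 3 genes. TFEB (chromosome 6, 41683978 to 41736259, minus strand, GRCh38) had 6.28, 6.48 and 7.09 CPM with the editor and 8.53, 6.62 and 6.11 CPM with GFP. Its groups overlapped, with GFP library 1 the highest, and the log2 fold change was −0.10 ± 0.15 (SE). TFE3 had 63.8, 47.5 and 46.3 CPM with the editor and 58.1, 49.7 and 53.9 CPM with GFP, with the highest and the lowest value both in editor libraries. MITF had 20.5, 17.5 and 18.1 CPM with the editor and 14.5, 20.8 and 19.5 CPM with GFP, all 3 editor values lying inside the GFP range. The smallest adjusted p of the 3 was 0.887, for TFEB (edgeR), and log2 fold changes were −0.04 ± 0.14 for TFE3 and 0.03 ± 0.15 for MITF.

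Among membrane proteins, LAMP2 and CD63 were abundant and LAMP1 and MCOLN1 scarce per kilobase of exon. That length is the union of all annotated exons of a gene, so ranks per kilobase depend in part on the annotation. CD63, a tetraspanin of late endosomes, lysosomes and exosomes, had 62.2 ± 10.4 CPM per kilobase in the GFP libraries, LAMP2 had 55.3 ± 9.40 and LAMP1 had 5.12 ± 0.280, although LAMP1 and LAMP2 encode the 2 major glycoproteins that coat the inner face of the lysosomal membrane. CD63 had 174, 154 and 152 CPM with the editor and 194, 142 and 155 CPM with GFP, so the groups overlapped. LAMP1 (chromosome 13, 113297241 to 113323672, plus strand) had 33.5, 37.6 and 34.8 CPM with the editor and 31.1, 28.0 and 28.96 CPM with GFP. Every editor library was above every GFP library, and the log2 fold change was 0.27 ± 0.10 (SE, adjusted p = 0.529, edgeR). LAMP2 lay the other way, at −0.06 ± 0.14 with overlapping groups.

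MCOLN1 encodes mucolipin-1, the channel that releases calcium from lysosomes, and had the largest fold change of the tested genes. Its level in the GFP libraries was the lowest of them per kilobase of exon, at 0.812 ± 0.0758 CPM per kilobase (chromosome 19, 7522626 to 7534009, plus strand). By mean CPM with GFP, CTSZ was lower, at 2.39 against 3.21. MCOLN1 had 3.06, 5.31 and 5.54 CPM with the editor and 3.43, 3.34 and 2.87 CPM with GFP. Editor libraries 2 and 3 were above all GFP libraries, whereas editor library 1 lay within the GFP range, at 0.563 times the mean of the other two. The log2 fold change was 0.53 ± 0.22 (SE) with a 95% interval of 0.02 to 1.04 (adjusted p = 0.569, edgeR). NPC1, which moves cholesterol out of the lysosome, had 108, 96.8 and 94.8 CPM with the editor and 99.6, 115 and 115 CPM with GFP, a log2 fold change of −0.14 ± 0.11 (SE).

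**Figure D2:**
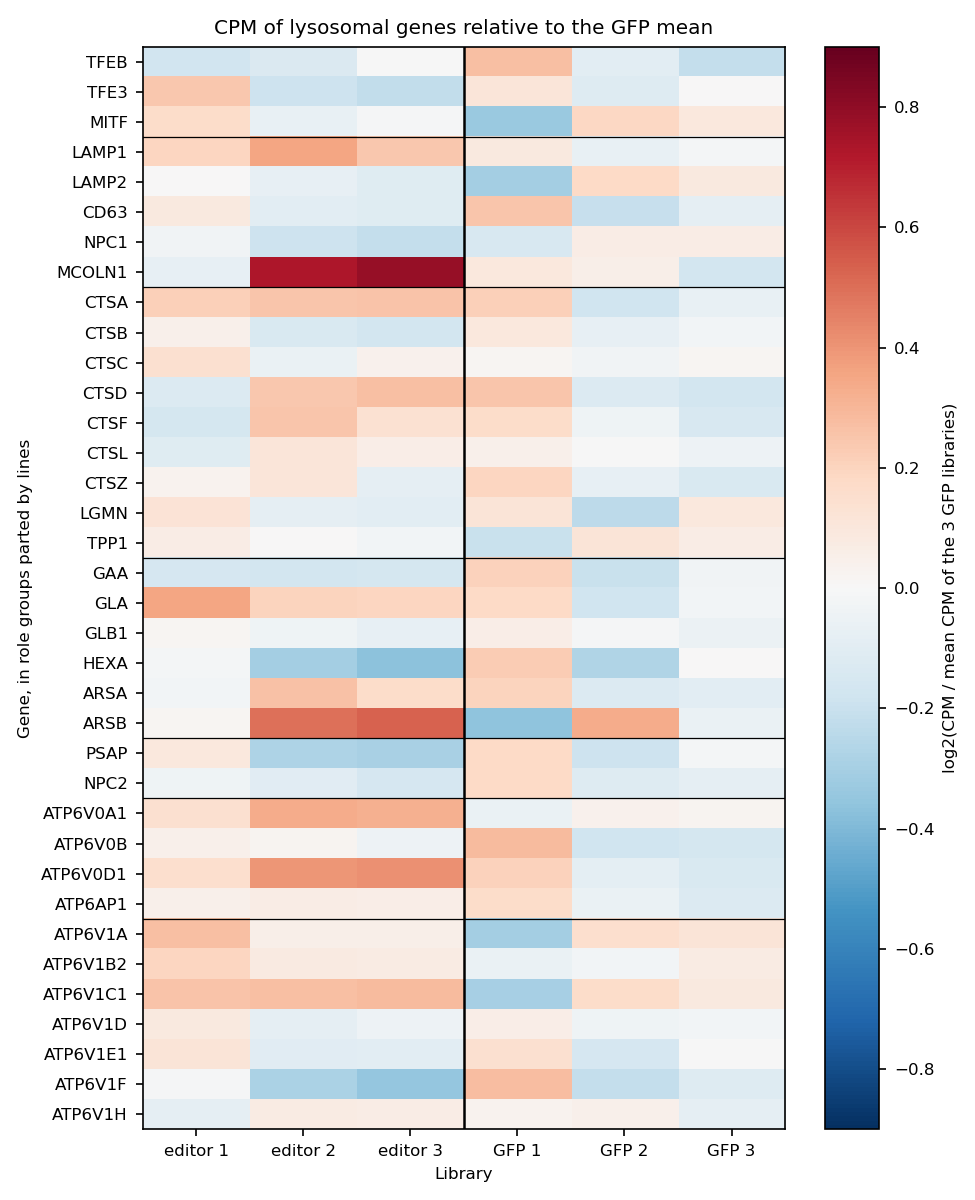
Each cell gives log2 of a library's CPM over the mean CPM of the 3 GFP libraries, for the 36 tested genes (rows, parted by role) and the 6 libraries (columns). MCOLN1 and ARSB are high in editor libraries 2 and 3 but not in 1, and GFP library 1 differs from GFP libraries 2 and 3 in many rows.

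Among 9 lysosomal proteases, 0 were called and 0 had an unadjusted p under 0.05 (edgeR), with log2 fold changes from −0.08 to 0.24 and a median of 0.02. CTSL, a cysteine cathepsin, was the most abundant per kilobase of exon, at 23.4 ± 0.754 CPM per kilobase in the GFP libraries, ahead of CTSB at 18.02 ± 1.08. In mean CPM of the GFP libraries the order was the other way, at 134 for CTSB and 55.5 for CTSL. CTSL had 51.4, 59.7 and 57.8 CPM with the editor and 57.3, 55.3 and 53.8 CPM with GFP, a log2 fold change of 0.02 ± 0.10. CTSZ was the least abundant, with 2.45, 2.58 and 2.27 CPM with the editor and 2.74, 2.27 and 2.17 CPM with GFP. The groups of both overlapped.

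CTSA, the protective protein that stabilises the enzymes encoded by GLB1 and NEU1, was the protease whose groups did not overlap. It had 19.7, 20.1 and 20.2 CPM with the editor and 19.6, 14.9 and 16.2 CPM with GFP, so GFP library 1 came within 0.1 CPM of the lowest editor library. The log2 fold change was 0.24 ± 0.12 (SE, adjusted p = 0.62, edgeR). The aspartic protease gene CTSD came to 0.14 ± 0.15, with editor library 1 at 21.0 CPM and libraries 2 and 3 at 27.1 and 27.6 CPM. CTSC, CTSF, CTSZ and TPP1, the tripeptidyl peptidase lost in a form of neuronal ceroid lipofuscinosis, lay between 0.01 and 0.09, and CTSB and LGMN, the asparaginyl endopeptidase, lay below 0.

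Genes for glycosidases and sulfatases had fold changes on both sides of 0, and 0 of 6 tested were called. GLA, the alpha-galactosidase missing in Fabry disease, was the most abundant at 57.8 ± 7.32 CPM per kilobase in the GFP libraries. It had 168, 151 and 151 CPM with the editor and 149, 116 and 129 CPM with GFP. The groups did not overlap, and the log2 fold change was 0.25 ± 0.12 (SE, adjusted p = 0.603, edgeR). ARSB, which removes sulfate from dermatan and chondroitin sulfate, had 14.7, 20.5 and 21.0 CPM with the editor and 11.3, 18.3 and 13.96 CPM with GFP. Its groups overlapped, each spanning more than 5 CPM, and the log2 fold change was 0.37 ± 0.20 (SE).

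On the lower side stood HEXA, the alpha subunit of beta-hexosaminidase A that is lost in Tay-Sachs disease, and GAA, the acid alpha-glucosidase that is lost in Pompe disease. HEXA had 30.4, 24.9 and 23.8 CPM with the editor and 36.01, 25.5 and 30.9 CPM with GFP, a log2 fold change of −0.22 ± 0.15 (SE). GAA had 40.9, 40.6 and 40.7 CPM with the editor and 52.4, 39.5 and 44.6 CPM with GFP. The editor values of GAA lay inside the much wider GFP range, at a log2 fold change of −0.16 ± 0.12. GLB1, the lysosomal beta-galactosidase, and ARSA, which desulfates sulfatide, came to −0.03 ± 0.09 and 0.14 ± 0.14.

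NEU1, the lysosomal sialidase, had 0 to 2 reads per library and was not tested. It lies on chromosome 6 at 31857659 to 31862906 (GRCh38), in the stretch between 29 and 33 megabases in which 85.0% of the 153 protein-coding genes had a mean below 10 reads, against 27.3% of protein-coding genes elsewhere. The count of NEU1 is therefore not read as its expression, and the cause of the low counts in that stretch was not tested.

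PSAP, whose product is cut into the saposins that present lipids to hydrolases, was the most abundant gene of the whole set, at 152 ± 19.1 CPM per kilobase in the GFP libraries. It had 526, 406 and 402 CPM with the editor and 556, 433 and 485 CPM with GFP, and the highest library of each group was library 1. NPC2, the soluble partner of NPC1 in cholesterol export, had 58.3, 55.7 and 54.1 CPM with the editor and 67.9, 55.3 and 56.6 CPM with GFP. Both genes' groups overlapped, with log2 fold changes of −0.14 ± 0.15 and −0.10 ± 0.11 (SE).

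**Figure D3:**
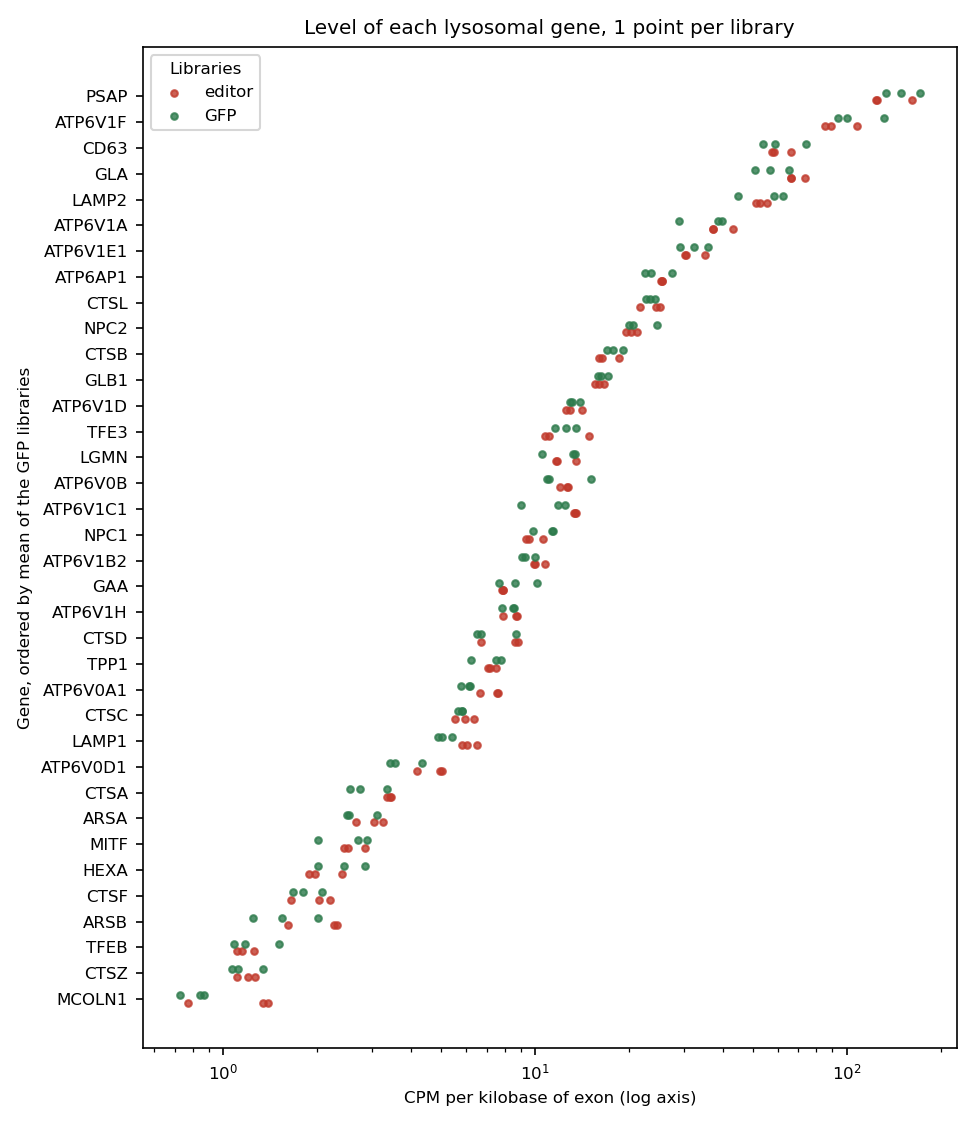
CPM per kilobase of exon (log axis) in each of the 6 libraries for the 36 tested genes, ordered by the mean of the GFP libraries. Levels span from 0.812 for MCOLN1 to 152 for PSAP in GFP cells, a range far wider than any difference between the groups.

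In the main fit, the V0 domain was the only role group with every tested gene above 0. Its median log2 fold change was 0.16 over 4 genes, against 0.02 for the 7 V1 genes. ATP6V0B, at 0.01 ± 0.14 (SE), fell below 0 with DESeq2, RLE scaling or no filter. It also did so without GFP library 2 (−0.0747), GFP library 3 (−0.0778) or editor library 1 (−0.0286). ATP6AP1 fell below 0 without GFP library 3 as well (−0.0174). Outside the set, 10 of 11 further V-ATPase genes tested also lay above 0. The order of the domains is a description of the estimates, and the difference between them was not tested. ATP6V0A1, which encodes a form of the large a subunit, had 73.3, 83.6 and 83.0 CPM with the editor and 63.6, 68.0 and 67.5 CPM with GFP (chromosome 17, 42458844 to 42522611, plus strand). Each editor library was above all GFP libraries, at 0.27 ± 0.10 on the log2 fold scale (SE, adjusted p = 0.529, edgeR). ATP6V0D1, the d subunit that couples the 2 domains, had 34.5, 40.8 and 41.3 CPM with the editor and 35.8, 29.2 and 28.2 CPM with GFP (chromosome 16, 67438014 to 67481237, minus strand). Editor library 1 lay below GFP library 1, so the groups overlapped, at 0.33 ± 0.13 on the log2 fold scale (SE, adjusted p = 0.544, edgeR).

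ATP6AP1, the accessory protein Ac45 that assists assembly of the pump, was the most abundant V0 gene per length at 24.5 ± 2.67 CPM per kilobase in the GFP libraries. It had 124, 125 and 125 CPM with the editor and 135, 115 and 110 CPM with GFP, which enclosed all editor values. ATP6V0B, the c″ subunit of the proteolipid ring, came to 0.01 ± 0.14 on the log2 fold scale. ATP6V0C, which encodes the ring's main c subunit, had 3 to 6 reads per library and was not tested. It shares 862 of its 1498 exon bases with an overlapping gene model on the same strand and 218 with another, both at 0 reads in all 6 libraries, so its count is not read as its expression.

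In the V1 domain, 0 of 7 genes were called and 0 had an unadjusted p under 0.05 (edgeR). ATP6V1C1, the C subunit that joins V1 to V0 in a regulated way, had 77.9, 78.5 and 79.4 CPM with the editor and 52.9, 73.2 and 69.3 CPM with GFP. The groups did not overlap, with GFP library 1 far below the other two, at 0.27 ± 0.13 on the log2 fold scale (SE, adjusted p = 0.603, edgeR). ATP6V1F was the most abundant V1 gene per kilobase of exon, at 109 ± 20.3 CPM per kilobase in the GFP libraries. ATP6V1H, a regulatory subunit, was the least abundant at 8.31 ± 0.389. By mean CPM of the GFP libraries, ATP6V1A was the most abundant V1 gene, at 184. ATP6V1F had 85.1, 70.3 and 67.4 CPM with the editor and 104, 73.9 and 79.2 CPM with GFP, a log2 fold change of −0.21 ± 0.15. ATP6V1H had 40.1, 44.6 and 44.4 CPM with the editor and 43.3, 43.6 and 40.0 CPM with GFP, at 0.02 ± 0.10. ATP6V1A and ATP6V1B2, whose products form the catalytic head, lay at 0.13 ± 0.14 and 0.12 ± 0.10, and the central and peripheral stalk genes ATP6V1D and ATP6V1E1 at −0.01 ± 0.10 and −0.02 ± 0.12.

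Several V-ATPase subunits are encoded by alternative genes, and the widespread forms had the higher levels in these libraries. For subunit B, ATP6V1B2 had 9.47 ± 0.457 CPM per kilobase in the GFP libraries, and ATP6V1B1, the form of intercalated cells in kidney and inner ear, had 0.0068 on 0 to 5 reads per library. ATP6V1B1 shares 1676 of its 2688 exon bases with VAX2 on the same strand, which had 77 to 134 reads, so its count is not read as its expression. For the d subunit, ATP6V0D1 had 3.78 ± 0.503 and ATP6V0D2, a form of osteoclasts and kidney, 0.126 ± 0.0418 CPM per kilobase. Subunit a was shared, with 6.06 ± 0.223 for ATP6V0A1 and 3.81 ± 0.755 for ATP6V0A2, while TCIRG1, the form of osteoclasts, had 0.36 ± 0.0711 and ATP6V0A4, the kidney form, 0.0382 ± 0.0046. For subunit e, ATP6V0E1 had 40.7 ± 3.56 and ATP6V0E2 had 6.99 ± 0.963. For subunit E, ATP6V1E1 had 32.5 ± 3.33 and ATP6V1E2, known from testis, 0.856 ± 0.039. Of the G forms, ATP6V1G1 had 70.8 ± 1.54, and ATP6V1G2 and ATP6V1G3 had 0 reads in all 6 libraries. ATP6V1G2 lies in the same poorly counted stretch of chromosome 6 as NEU1, so its 0 is not read as absence.

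**Figure D4:**
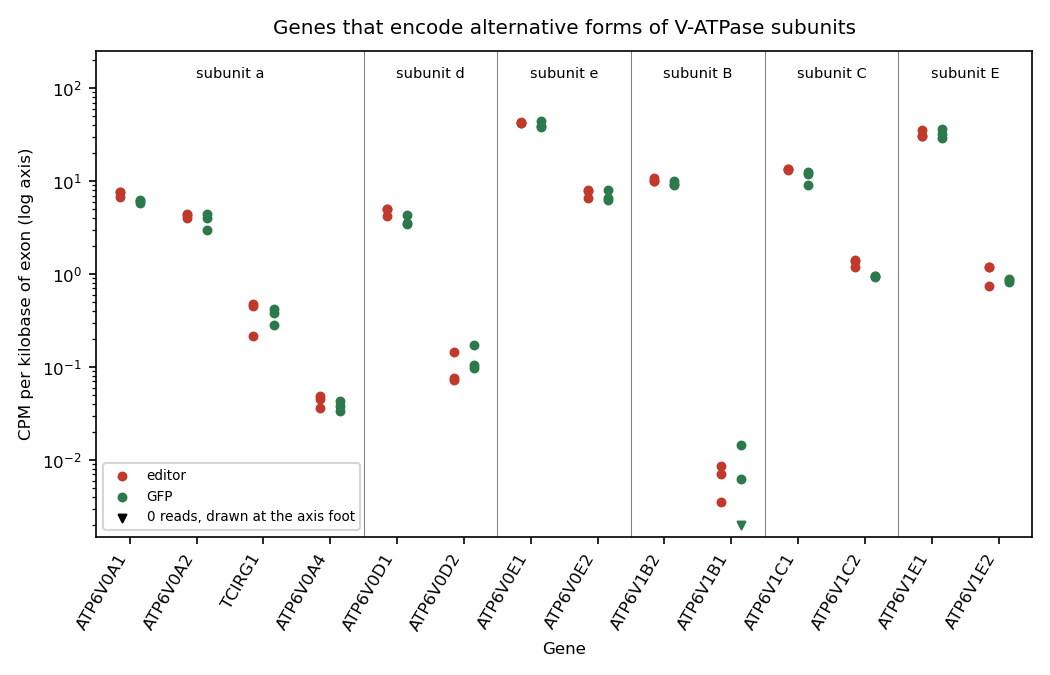
CPM per kilobase of exon (log axis) of genes that encode alternative forms of 6 V-ATPase subunits, with 1 point per editor or GFP library and triangles for 0 reads. In every subunit but a, the first gene is over 5 times the level of its alternatives, and ATP6V1C2 is the alternative whose groups lie fully apart.

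Subunit C gave the smallest p-value among V-ATPase genes, in the minor form. ATP6V1C2, at 0.942 ± 0.0094 CPM per kilobase in the GFP libraries beside 11.1 ± 1.84 for ATP6V1C1, had 4.13, 4.96 and 4.84 CPM with the editor and 3.25, 3.31 and 3.29 CPM with GFP. All editor libraries were above all GFP libraries, at 0.50 ± 0.13 on the log2 fold scale (SE, adjusted p = 0.465, edgeR). Beside the subunits already named, ATP6AP2, the prorenin receptor that also serves the pump, came to 0.08 ± 0.10 and RNASEK to 0.17 ± 0.20. Of the exon bases of ATP6V1C2, 1033 of 3483 overlap PDIA6 on the opposite strand, which had 55099 to 80844 reads per library against 396 to 771 for ATP6V1C2, and with the strand setting unknown the share of reads from PDIA6 was not tested. RNASEK shares 661 of its 1789 exon bases with a readthrough gene model, and its level of 0.642 ± 0.132 CPM per kilobase is uncertain for that reason.

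Around the set, 142 further genes of the lysosome, of delivery to it, of mTORC1 and TFEB control and of autophagy were counted, and 130 were tested. Of these, 0 were called in either direction, their median log2 fold change was 0.05, and 6 were higher and 4 lower at an unadjusted p under 0.05 (edgeR), 4.62% and 3.08% beside backgrounds of 6.1% and 2.57%. MANBA, the lysosomal beta-mannosidase, had the smallest p of them all. It had 34.1, 26.8 and 28.1 CPM with the editor and 39.0, 43.6 and 41.2 CPM with GFP, so every editor library was below every GFP library, at −0.48 ± 0.12 (SE, adjusted p = 0.458). Without editor library 1, MANBA was called lower at −0.61 (adjusted p = 0.0462, edgeR), as was WIPI1 at −0.76 (adjusted p = 0.0413). These were 2 of the 130 genes, with 0 called higher, where 0.748% of all genes were called higher and 0.254% lower. That fit leaves only editor libraries 2 and 3, which lay far closer to each other than any other pair of replicates. WIPI1 had 26.0, 15.9 and 16.0 CPM with the editor and 27.8, 24.1 and 27.8 CPM with GFP, so editor library 1 lay inside the GFP range.

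Other hydrolases with a low unadjusted p were the cathepsin genes CTSS, at 0.53 ± 0.18, and CTSV, at 0.30 ± 0.11, and GUSB, the beta-glucuronidase, at −0.27 ± 0.11 (SE). The groups did not overlap for any of the 3, with GUSB at 36.1, 40.4 and 39.0 CPM with the editor and 52.4, 42.7 and 44.3 CPM with GFP. CTSS is scarce, at 0.218 ± 0.0121 CPM per kilobase in GFP cells, and macrophage markers were close to 0 in these libraries. Among membrane proteins, CTNS, the cystine exporter, had 6.20, 13.4 and 13.6 CPM with the editor and 6.74, 8.31 and 5.57 CPM with GFP, at 0.69 ± 0.29. Editor library 1 of CTNS lay inside the GFP range, as it did for MCOLN1. SLC17A5, the sialic acid exporter, came to −0.36 ± 0.19 and SLC38A9, an arginine sensor for mTORC1, to 0.33 ± 0.17, both with overlapping groups.

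In the mTORC1 pathway, 2 related Rag GTPase genes had opposite signs. RRAGA had 51.8, 50.7 and 49.7 CPM with the editor and 62.8, 58.7 and 57.2 CPM with GFP, at −0.23 ± 0.09 (SE, adjusted p = 0.556, edgeR), with no overlap. RRAGB had 6.37, 9.20 and 9.83 CPM with the editor and 6.21, 7.03 and 5.82 CPM with GFP, at 0.42 ± 0.18 (adjusted p = 0.569, edgeR), with editor library 1 inside the GFP range. LAMTOR3, a part of the Ragulator that anchors the Rags, came to 0.14 ± 0.09 without overlap. The autophagy genes with the smallest p were WIPI1, which binds phosphoinositides on forming autophagosomes, at −0.46 ± 0.19, ATG7, the enzyme that activates autophagy's ubiquitin-like proteins, at −0.17 ± 0.10, and GABARAP at −0.21 ± 0.14.

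In delivery to lysosomes, 0 of 24 genes had an unadjusted p under 0.05. The smallest p there belonged to VPS33A, of the complex that tethers late endosomes, at 0.23 ± 0.11 (SE), NAGPA, which uncovers the mannose 6-phosphate tag, at 0.44 ± 0.21, and AP1M1, an adaptor subunit, at −0.23 ± 0.13. Of 10 lysosomal genes of tissue-restricted cells, 4 were tested, and LAMP3, the dendritic cell LAMP, had 5.64, 6.97 and 6.34 CPM with the editor and 4.42, 5.18 and 5.35 CPM with GFP, at 0.34 ± 0.14 without overlap. LAPTM5, at 0.46 ± 0.40, and NAPSA, at −0.23 ± 0.28, had under 0.4 CPM in each library.

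Non-overlap between the groups was seen for 5 of 36 genes with the editor libraries higher, LAMP1, ATP6V0A1, CTSA, ATP6V1C1 and GLA, and for 0 with them lower. These are 13.9% and 0% of the tested genes, beside 8.63% and 6.12% of all tested genes. The library that most often stood at an end was GFP library 1, which was the highest or lowest of the 6 for 21 of the 36 genes (58.3%, against 50.2% of all genes), 13 of them as the highest. Editor library 1 did so for 9 (25.0%, against 40.3%). For ATP6V1C1 and ARSB, GFP library 1 was the lowest of the 6, and for CTSA, GLA, HEXA, GAA, PSAP and ATP6V1F it was the highest GFP library.

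Without editor library 1, which left the closely similar libraries 2 and 3 against 3 GFP libraries, 0 genes were called and the smallest adjusted p was 0.05002 (edgeR). At an unadjusted p under 0.05, LAMP1, MCOLN1, ARSB, ATP6V0A1 and ATP6V0D1 were then higher and HEXA and PSAP lower, 13.9% and 5.56% of the genes beside backgrounds of 14.2% and 8.3%. Without editor library 2 or 3, 0 genes had an unadjusted p under 0.05 in either direction. The backgrounds were 2.45% and 2.55% higher, and 1.0% and 1.04% lower. Without GFP library 1, LAMP1, CTSA, GLA, ATP6V0A1 and ATP6V0D1 were higher (13.9%, against 5.78% of all genes) and LAMP2 and NPC1 lower (5.56%, against 6.13%), and 0 were called. Without GFP library 2, ARSB and ATP6V1C1 were higher (5.56%, against 4.93%) and 0 lower. The count of 0 in both directions was also found without GFP library 3, beside a background of 3.13% higher and 1.85% lower. It was found too with editor libraries 2 and 3 summed as 1 replicate, beside 2.57% higher and 0.963% lower.

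Set against the promoter matches shown above, the 8 genes with the 8-base E-box had a median log2 fold change of 0.25, with 7 of 8 above 0 and GAA below. The 18 tested genes with a window but no match had a median of 0.00, with 9 of 18 above 0. Over all 12804 tested genes with a window, 56.5% of those with the motif and 51.4% of those without lay above 0, with medians of 0.03 and 0.01. Of the 4 genes with an unadjusted p under 0.05, LAMP1, MCOLN1 and ATP6V0D1 held the motif and ATP6V0A1 did not. No test was made of this split, and no gene on either side of it was called.

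**Figure D5:**
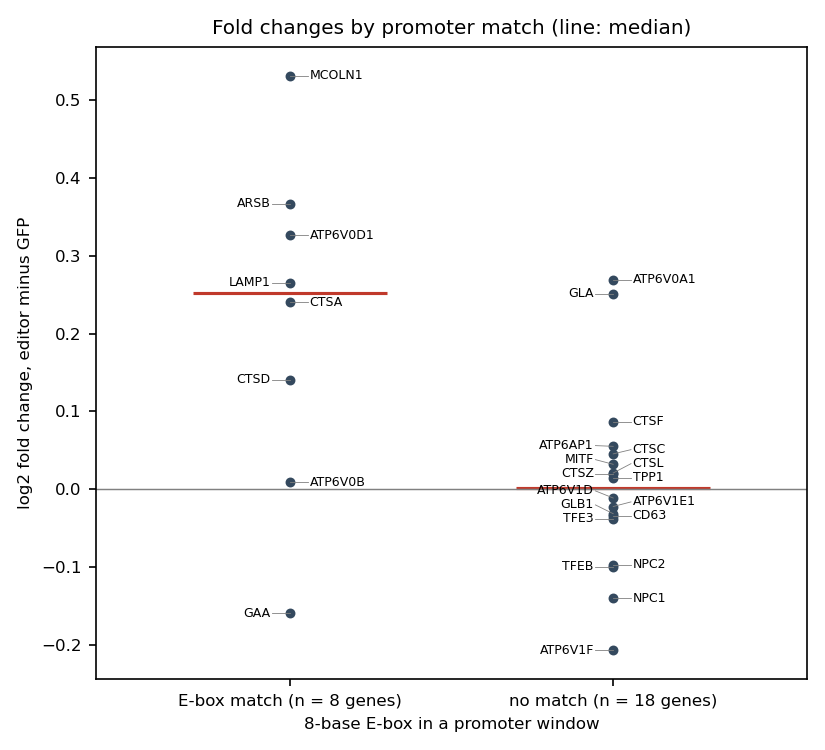
Log2 fold change (editor minus GFP, vertical axis) of the 26 tested genes with a RefSeq promoter window, by whether a window holds the 8-base E-box, with 1 labelled point per gene and a red line at the median. The medians are 0.25 with a match and 0.00 without, and the 2 sets of points overlap.

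In the authors' deposited table, the same 36 genes were listed with log2 fold changes from −0.21 to 0.51, and their smallest adjusted p was 0.582. Some of these counts can hold or lack reads of a neighbour. On the same strand, CTSD shares 1304 of its 3126 exon bases with a gene model that had 4 to 11 reads per library. TPP1 shares 756 of 6544 with a model at 0 reads, and HEXA 617 of 12611 with a model at 0 to 8 reads. Among the further genes, GABARAP shares 691 of 2266 and VPS33A 1609 of 7493, each with a model at 0 reads. On the opposite strand, exons of CTSA, NPC1, NPC2, ATP6V1D and ATP6V1F overlap other protein-coding genes, and the strand setting of the counting is not given in the sources used here.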

How the data were processed

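RNA of HEK293T cells was polyA-selected, made into TruSeq libraries and sequenced on a NovaSeq 6000, per the labels' protocols. The submitters' processing notes name HISAT2, featureCounts and limma without versions, and the build, annotation and strand setting are not given in the sources analysed. The authors deposited raw counts per gene for 62700 gene IDs, not normalized, and a limma table with log2 fold changes and adjusted p-values, whose first 15273 rows were used and whose values are labelled where printed.

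The counts were fitted in R 4.3.3 with edgeR 4.0.16: TMM scaling, the default expression filter (20511 genes left), the quasi-likelihood F-test and Benjamini-Hochberg adjustment over all tested genes at 0.05. SE was obtained from the log2 fold change and F. CPM per kilobase uses the union of exons in GENCODE 29 (GRCh38), matched by ID, which is also the source of gene coordinates. Symbols were matched by ID. The scripts were tested on simulated data.

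Alternatives were DESeq2 1.42.0, limma-voom 3.58.1, no filter, library totals, a minimum of 50 reads in 3 libraries, RLE scaling, an adjusted p of 0.01, leaving out each library, editor libraries 2 and 3 summed, and the replicate number as a block. The labels call the libraries biological replicates and say nothing of separate cultures, so p-values measure only how these libraries vary, in part perhaps technically. With 3 against 3 libraries an exact permutation test cannot go below p = 0.1, so the model across all genes was used.

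The genes, lists and tests were chosen with earlier results of these data known. All 38 genes are named or counted; values in every library are given for TFEB, TFE3 and MITF, the 12 genes with the smallest p, and the most and least abundant gene of each role group. From each further list, called genes and the 3 with the smallest p are named, plus the V-ATPase subunit forms, and GUSB was added after its value was seen. Promoter windows come from RefSeq's GRCh38.p14 table, in which 10 of the 38 genes had no entry: LAMP2, CTSB, LGMN, HEXA, ARSA, PSAP, ATP6V1A, ATP6V1B2, ATP6V1C1 and ATP6V1H. A gene was counted as holding a motif if any of its windows did.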

Additional observations from a re-analysis of the deposited data

How the results depend on the processing

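No lysosomal gene of the 36 was called under any of the 15 alternatives, and the median log2 fold change of the set stayed between −0.03 and 0.07. Across all alternatives 18 genes changed sign, with values within 0.0428 of 0 where no library was left out. With DESeq2, CTSL came to −0.00138, CTSZ to −0.00312, TPP1 to −0.00637 and ATP6V0B to −0.0134, and with RLE scaling to −0.00142, −0.00231, −0.00636 and −0.0134. With at least 50 reads in 3 libraries, ATP6V1D came to 0.000498. With editor libraries 2 and 3 summed, TFE3 came to 0.0353, CTSL to −0.0132, LGMN to 0.0189, ATP6V1D to 0.0136, ATP6V1E1 to 0.0126 and ATP6V1H to −0.00262. In that fit 0 genes were higher at an unadjusted p under 0.05, beside 2.57% of all genes. With library totals, which moved the median of all genes to 0.08, 9 genes lay below 0, and TFE3 came to 0.00525, CD63 to 0.0118, LGMN to 0.0338, GLB1 to 0.0192, ATP6V1D to 0.0380 and ATP6V1E1 to 0.0250. With no filter, MITF came to −0.0219, CTSC to −0.00697, CTSL to −0.0334, CTSZ to −0.0331, TPP1 to −0.0394, ATP6V0B to −0.0428 and ATP6V1H to −0.0306. Of 38 genes in that fit, 3 (MCOLN1, ARSB and ATP6V0D1) were higher at an unadjusted p under 0.05 (7.89%, against 3.8% of all genes). In the other direction, 1 gene (HEXA) was lower (2.63%, against 3.1%). Of the further genes CTNS was called higher (1) and MANBA and WIPI1 lower (2), beside 0.401% and 0.29% of all genes.

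Leaving out each library in turn, the number of genes at an unadjusted p under 0.05 ran from 0 to 5 higher and from 0 to 2 lower, and the number of further genes called lower from 0 to 2. The log2 fold change ran from −0.211 to 0.0409 for TFEB, −0.222 to 0.0453 for TFE3, −0.124 to 0.134 for MITF, −0.204 to 0.0386 for LAMP2, −0.129 to 0.0930 for CD63, −0.0281 to 0.0946 for CTSC, −0.00221 to 0.174 for CTSF, −0.0233 to 0.0615 for CTSL, −0.0590 to 0.113 for CTSZ, −0.121 to 0.0339 for LGMN and −0.0911 to 0.0739 for TPP1. For the pump it ran from −0.0778 to 0.162 for ATP6V0B, −0.0174 to 0.132 for ATP6AP1, −0.0155 to 0.210 for ATP6V1A, −0.0835 to 0.0232 for ATP6V1D, −0.117 to 0.0409 for ATP6V1E1 and −0.0298 to 0.0507 for ATP6V1H.

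With the replicate block, 2 genes (ARSB and ATP6V0A1) were higher at an unadjusted p under 0.05 (5.56%, against 5.5% of all genes), and 0 were called. Same-numbered libraries deviated with correlations of −0.05, 0.17 and −0.24. With so few libraries in each group, these values cannot show whether the numbers mark shared cultures, and the labels do not say. The cause of these shifts was not tested.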

Other observations

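CLCN7 and TPCN1, outside the set, are given as values only and were chosen after these were seen. CLCN7, the lysosomal chloride-proton exchanger, had 12.8, 27.9 and 28.3 CPM in the editor libraries and 19.1, 19.3 and 15.8 CPM in the GFP libraries. TPCN1, a lysosomal cation channel, had 9.28, 20.1 and 19.4 CPM in the editor libraries and 12.3, 15.6 and 11.9 CPM in the GFP libraries. In both, editor library 1 was the lowest of the 6 and editor libraries 2 and 3 the highest, so the editor range enclosed the GFP range.

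CLN3, a lysosomal membrane protein gene, had 15 to 45 reads per library while sharing 2480 of its 9858 exon bases with an overlapping gene model that had 0 reads. Whether such counts reflect expression was not tested.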
